A study of Homo sapiens with 2 samples.

Results

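Positions occupied by V5-tagged TET1 were examined around 10 genes that restrain, carry out or report WNT signalling in human cardiac progenitors. They are the secreted antagonists DKK1, SFRP1, SFRP5 and FRZB, the nuclear effectors LEF1 and TCF7, and the feedback targets AXIN2, SP5, NOTUM and ZNRF3. Peaks were taken by position alone: every peak overlapping a gene's span, widened by 20 kb at each side, was kept. This gave 47 of the 46208 peaks in the authors' list. The cells descended from H1, an established human embryonic stem cell line, and were collected on day 7 of a monolayer heart differentiation in which the WNT activator CHIR99021 (6 µM) was withdrawn on day 2 and the WNT secretion inhibitor IWP2 (5 µM) was present from day 3 to day 5. The ChIP group held 1 library from cells with V5 on endogenous TET1, and the input group held 1 library, without an antibody step, from cells of the same stage. Both libraries are entered in the labels as wild type, and a V5 ChIP of untagged cells was not analysed here, so TET1 binding and other signal of the V5 antibody cannot be told apart. There is no replicate, so no p-value is given, and the read depth behind each peak is unknown. The cell type could not be checked against its markers, since the list holds no expression values.

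In the canonical WNT pathway, a WNT ligand bound to Frizzled and LRP receptors stops the destruction of beta-catenin, which then enters the nucleus and acts with TCF and LEF proteins on target genes. Several of those targets feed back on the pathway, and secreted antagonists limit it from outside the cell. In heart formation WNT signalling is needed early for mesoderm and must fall later for cardiac specification. TET1 oxidises 5-methylcytosine, the first step of active DNA demethylation, and its CXXC domain is known to favour CpG-rich DNA.

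All 10 genes carried a peak over their start. For each gene the start was the first edge of the span in the direction of transcription, known to about 1 kb, and a peak had to reach within 1 kb of it. Across all end-to-end 2 kb windows of the genome, 5.72% were overlapped by a peak. Gene starts are not typical 2 kb windows, and the share over the starts of all genes was not analysed here, so the count of 10 of 10 is not shown to be particular to these genes. Peaks covered 95.7% of the bases within 1 kb of the 10 starts and 11.0% of the other bases in the windows. The 10 peaks had a median width of 4130 bp (2179 to 6684 bp) and a median score of 2319 (400 to 3100), where the score is the authors' value from their peak caller, with no unit stated in the file. The 37 other peaks of the windows had a median width of 1504 bp and a median score of 132. The whole list had medians of 1531 bp and 172.

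**Figure D1:**
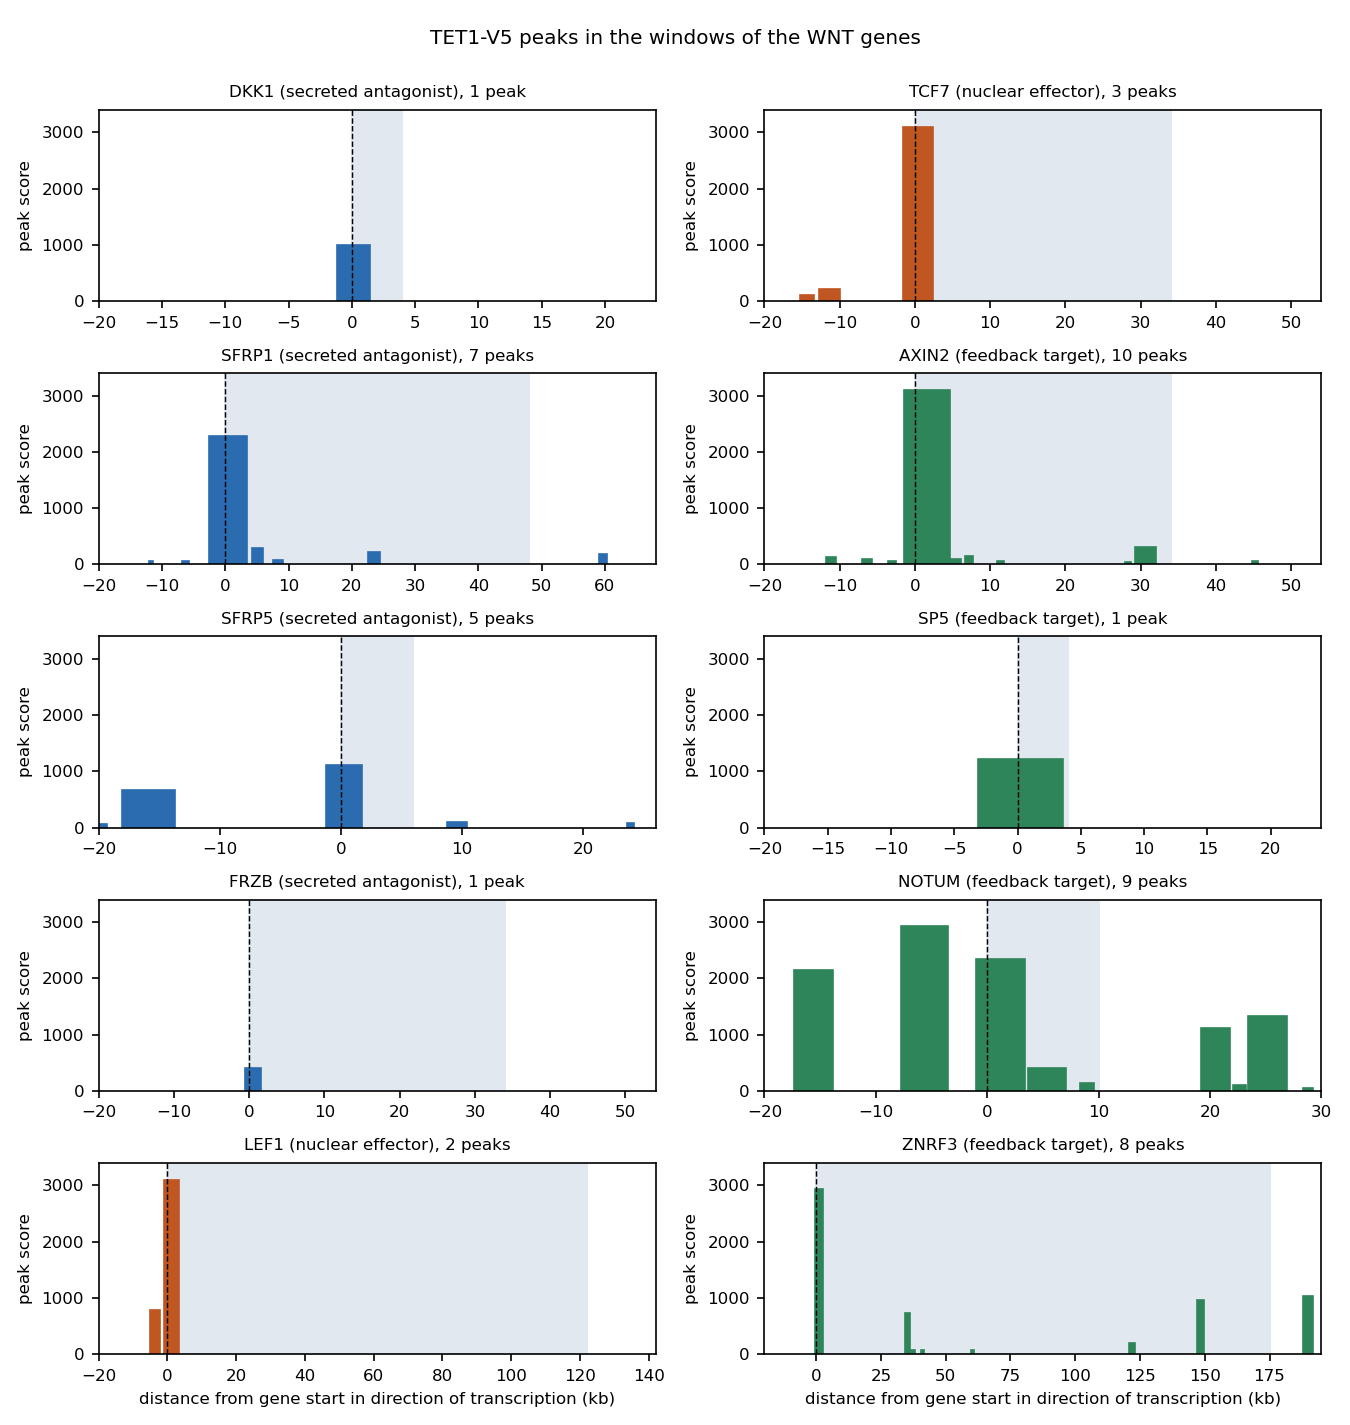
Peaks in the windows of the 10 genes. The horizontal axis is the distance from the gene start in the direction of transcription (kb), the shaded band is the gene's span, and each bar is a peak drawn to its width, with the authors' score as its height. Every gene has a peak at 0, DKK1, FRZB and SP5 have no other, and NOTUM alone has peaks scoring 2145 or more away from its start.

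The ceiling is the name given here to the group of peaks that begins at a score of 3100, and its members are not ranked. In the whole list 2030 peaks scored exactly 3100 and 135 scored higher, up to 3233. No peak of the windows scored above 3100. Of the 10 peaks over starts, 3 stood at the ceiling, against 4.69% of the whole list, and 9 scored 1000 or more, against 18.6% of the list. None scored below 100, where 32.9% of the list lies, and 3 (SP5, SFRP1 and AXIN2) were 5 kb or wider, against 3.2% of the list. Among the 37 other peaks of the windows none reached the ceiling, 5 scored 1000 or more and 17 scored below 100. With so few peaks these shares are loosely fixed: the 95% Wilson interval of 9 in 10 runs from 59.6% to 98.2% and that of 5 in 37 from 5.91% to 28.0%. These intervals and those below reflect counting alone, and neighbouring peaks of a library are not independent draws. Width and score come from the same peak call and are not separate evidence. The scores and widths of peaks over the starts of other genes were not analysed here. These shares are therefore not shown to be particular to the 10 genes.

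Promoter sequences of genes with strong and weak start peaks are shown here, since TET1 is known to favour CpG-rich DNA. They are the 250 bases before the start in RefSeq's table of GRCh38.p14, written 5′ to 3′ in the direction of transcription, with every CpG in capitals. Of the 10 genes, 6 were matched by symbol in that table; AXIN2, NOTUM, SFRP1 and ZNRF3 were not.
DKK1 (chr10:52314031-52314280, plus strand): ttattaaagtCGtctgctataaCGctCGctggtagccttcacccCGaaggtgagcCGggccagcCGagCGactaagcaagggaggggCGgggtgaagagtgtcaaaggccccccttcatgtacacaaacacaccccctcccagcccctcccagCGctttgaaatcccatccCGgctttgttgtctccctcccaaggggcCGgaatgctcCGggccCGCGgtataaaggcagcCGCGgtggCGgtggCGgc
SFRP5 (chr10:97772000-97772249, minus strand): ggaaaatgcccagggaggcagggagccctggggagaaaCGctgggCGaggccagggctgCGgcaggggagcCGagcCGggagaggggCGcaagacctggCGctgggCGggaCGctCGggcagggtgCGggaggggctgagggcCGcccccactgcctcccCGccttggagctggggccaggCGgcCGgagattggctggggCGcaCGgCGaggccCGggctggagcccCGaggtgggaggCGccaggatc
FRZB (chr2:182866638-182866887, minus strand): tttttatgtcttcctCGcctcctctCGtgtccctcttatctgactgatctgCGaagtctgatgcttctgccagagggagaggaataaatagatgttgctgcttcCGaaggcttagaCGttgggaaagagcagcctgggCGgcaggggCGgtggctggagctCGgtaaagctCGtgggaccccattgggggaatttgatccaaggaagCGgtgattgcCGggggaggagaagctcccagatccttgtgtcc
LEF1 (chr4:108166302-108166551, minus strand): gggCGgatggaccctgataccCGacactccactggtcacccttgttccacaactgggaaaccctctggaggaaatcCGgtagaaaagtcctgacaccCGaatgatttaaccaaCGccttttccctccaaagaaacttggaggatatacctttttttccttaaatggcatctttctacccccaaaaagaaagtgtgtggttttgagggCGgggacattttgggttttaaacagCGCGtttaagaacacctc
TCF7 (chr5:134115363-134115612, plus strand): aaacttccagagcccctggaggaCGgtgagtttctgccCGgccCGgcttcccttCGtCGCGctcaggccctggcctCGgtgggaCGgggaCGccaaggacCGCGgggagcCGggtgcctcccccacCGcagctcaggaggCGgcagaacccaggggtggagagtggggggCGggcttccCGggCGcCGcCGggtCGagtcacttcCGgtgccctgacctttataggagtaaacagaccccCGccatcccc

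By the CpG number of these stretches TCF7, SFRP5, DKK1 and FRZB stood in the same order as by the score of their start peaks, and LEF1 did not. TCF7 had 22 CpG, SFRP5 21, DKK1 18, FRZB 11 and LEF1 8, while over the 35116 promoters of the table the median was 11 (quartiles 3 and 23). LEF1, with a peak at the ceiling, thus had fewer CpG than SFRP5 or DKK1, whose peaks scored 1115 and 1005. SP5, with 6 CpG and a start peak of 1219, also stood outside that order. The starts behind these stretches are not always the gene's outer end: in the same assembly the LEF1 start lies 2.6 kb inside the gene and the TCF7 start 7.4 kb inside. A second listed TCF7 start, 15.4 kb inside, has 1 CpG in its 250 bases. Whether the LEF1 and TCF7 stretches lie under the peaks over the starts of their spans was not determined. With so few stretches, and these genes not placed, a relation between CpG number and score was not tested. A stretch of 250 bases is a small part of a peak 2179 bp or wider, and the promoter table and the peaks are on different builds, so the sequences are matched to the genes and not to positions in the peaks.

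SP5 is shown apart because it differed in another feature. SP5 encodes a zinc finger factor that is a direct target of beta-catenin. Its 250 bases held only 6 CpG, and in the line below the capitals mark the core CTTTG of the TCF and LEF binding motif on either strand (CAAAG on the reverse).
SP5 (chr2:170715087-170715336, plus strand): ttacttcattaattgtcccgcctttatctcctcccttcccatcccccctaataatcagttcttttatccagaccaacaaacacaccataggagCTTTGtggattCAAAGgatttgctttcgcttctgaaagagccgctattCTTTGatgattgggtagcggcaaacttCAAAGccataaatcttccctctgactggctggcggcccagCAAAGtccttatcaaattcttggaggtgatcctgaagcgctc
The core occurred 5 times, 2 forward and 3 reverse, and 0.0854% of the promoters in the table held as many. At least 1 core was present in 42.1% of the table. The SP5 stretch was 45.6% G and C, against a table median of 58%, and promoters of like composition were not compared apart. The longer motif CTTTGAT, searched on both strands and containing the core, occurred 1 time in SP5 and in 2.26% of the table, and in no other member stretch. DKK1 had 3 cores, the second TCF7 start 2 and LEF1 1, and FRZB, SFRP5 and the first TCF7 start had none. A match describes the letters only, and binding of TCF or LEF proteins was not measured.

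The secreted antagonists included the 3 lowest start peaks of the set, and none of the 4 was at the ceiling. Their scores ran from 400 to 2286 and overlapped those of the other 6 genes (1219 to 3100). DKK1, which blocks the LRP coreceptors, had its only peak on chromosome 10 from 54072839 to 54075412 (2574 bp, score 1005), reaching 1.2 kb upstream and 1.4 kb downstream of the start. That score was above 81.4% of the list. FRZB, also known as SFRP3 and able to bind WNT proteins, likewise had a lone peak, on chromosome 2 from 183730408 to 183732586, and it was the weakest and narrowest of the 10 (2179 bp, score 400, above 67.2% of the list). Beyond 1.6 kb from the start, its 34 kb span held no peak. In both windows the peak over the start was therefore all that was called.

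SFRP1 and SFRP5, secreted proteins with a Frizzled-like domain that bind WNT, had more. The SFRP1 start peak on chromosome 8 from 41163510 to 41169590 was 6081 bp wide, wider than 98.3% of the list, and scored 2286. It was followed inside the gene by peaks scoring 291, 86.6 and 221, and 2 weak peaks upstream scored 53.4 and 54.9, so no other peak of that window came near it. A peak past the gene's far end scored 185. The SFRP5 start peak on chromosome 10 from 99530280 to 99533215 was 2936 bp wide and scored 1115. A second SFRP5 peak, from 13.7 to 18.0 kb upstream (chromosome 10 from 99545709 to 99550047), was wider at 4339 bp but scored 665. Its other 3 peaks scored between 61.9 and 99.4, and those on the downstream side lie towards ZFYVE27, the neighbouring gene in RefSeq's GRCh38.p14 table.

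The nuclear effectors both reached the ceiling at the start and had no peak elsewhere in the gene. LEF1 and TCF7 encode the DNA-binding partners of beta-catenin. The LEF1 peak on chromosome 4 from 109086627 to 109090964 was 4338 bp wide and reached 3.4 kb into the gene. Over the rest of the 122 kb span no peak was called, and the longest peak-free stretch of the window was 138.6 kb. A further LEF1 peak, 2.2 to 5.2 kb upstream, was 2931 bp wide and scored 784, and the antisense gene LEF1-AS1 lies on that side in the RefSeq table. The TCF7 peak on chromosome 5 from 133448459 to 133452380 was 3922 bp wide, and the gene beyond 2.4 kb from the start was free of peaks. Weaker TCF7 peaks scoring 218 and 116 lay up to 15.2 kb upstream. A window as long as that of LEF1 held a ceiling peak in 10.2% of end-to-end windows of the genome, and one as long as that of TCF7 or AXIN2 in 5.21%.

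**Figure D2:**
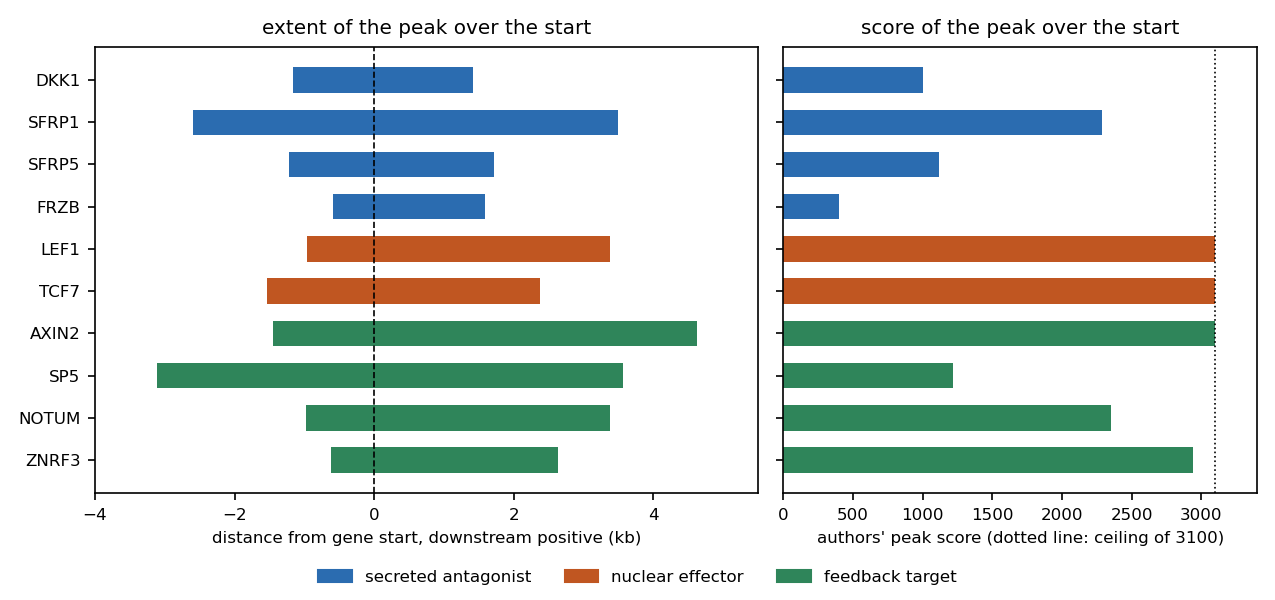
The peak over the start of each gene. Left, its extent relative to the start (kb, downstream positive); right, its score, with the ceiling of 3100 dotted. LEF1, TCF7 and AXIN2 reach the ceiling, FRZB is lowest at 400, and the AXIN2 peak reaches farthest into the gene, 4.6 kb; the start is known to about 1 kb.

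The feedback targets had start peaks scoring from 1219 to 3100. AXIN2 encodes a scaffold of the beta-catenin destruction complex and is widely used as a readout of WNT activity. Its start peak on chromosome 17 from 63553373 to 63559443 was 6071 bp wide, was at the ceiling and reached 4.6 kb into the gene, the farthest of the 10. Another 9 AXIN2 peaks flanked it at scores of 50.5 to 306, and 6 of the 9 were below 100. The window thus paired a peak at the ceiling with a string of much weaker peaks, down to just above the list's lowest score of 50. The strongest of the 9 (2833 bp, score 306) lay inside the gene, 29.3 to 32.1 kb from the start.

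SP5 had a lone peak, on chromosome 2 from 171567884 to 171574567. It was the widest of the 47 at 6684 bp, and 592 peaks of the list were as wide or wider. It covered 89.2% of the 4 kb gene span and reached 3.1 kb upstream, on the side where the RefSeq table places the noncoding gene LINC01124. Its score of 1219 was low beside that of the narrower AXIN2 peak. ZNRF3, a membrane ubiquitin ligase that removes Frizzled receptors, had a start peak on chromosome 22 from 29278376 to 29281628 (3253 bp, score 2941). Inside its 175 kb span lay 6 more peaks, with scores of 64.0 to 965, the highest of them 147 to 150 kb from the start. The peak of the ZNRF3 window farthest from the start (3807 bp, score 1027) lay past the gene's end, on the side of C22orf31 and KREMEN1. KREMEN1 encodes a receptor for DKK proteins.

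NOTUM, an extracellular enzyme that inactivates WNT by removing its lipid, was the exception. Its start peak on chromosome 17 from 79916622 to 79920973 was 4352 bp wide and scored 2352. The peak 3.5 to 7.8 kb upstream, from 79923545 to 79927781, scored higher, at 2929. NOTUM was the only one of the 7 genes with more than 1 peak in which the start peak did not have the highest score. Another strong peak of the NOTUM window (3479 bp, score 2145) lay 13.9 to 17.4 kb upstream, towards ASPSCR1. A further 2 (scores 1113 and 1325) lay 19.2 to 26.9 kb downstream of the start, on the side of MYADML2 and PYCR1. Of the 5 peaks scoring 1000 or more away from the start of their window's own gene, 4 were in the NOTUM window and the other was beyond ZNRF3. Starts of neighbouring genes were not placed on hg19. Whether these 5 peaks lie over such starts was therefore not determined, and they are not assigned to NOTUM or ZNRF3. Peaks covered 49.9% of the NOTUM window, a share matched by 0.304% of end-to-end windows of that length.

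**Figure D3:**
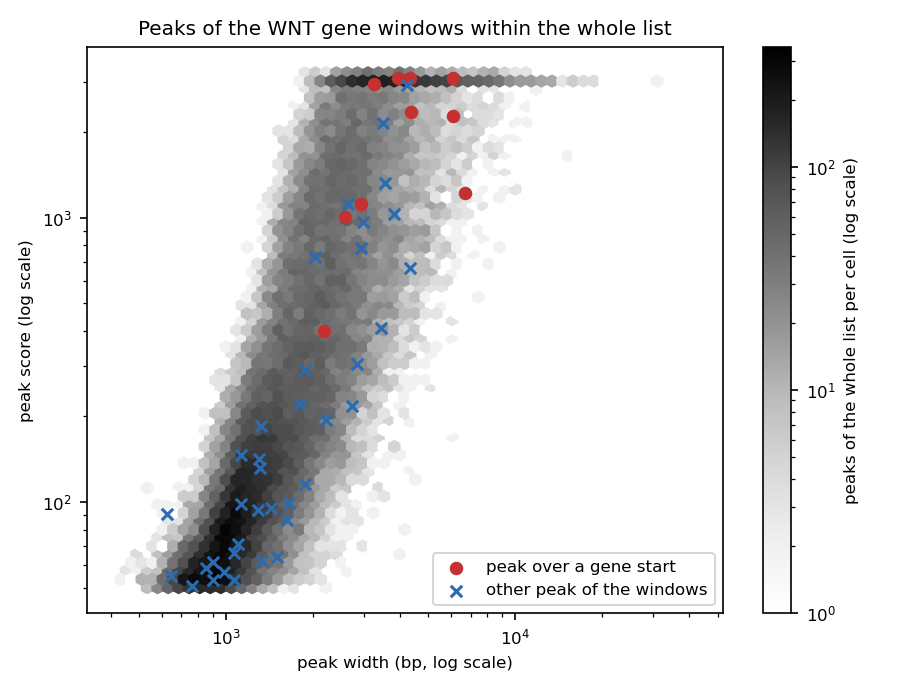
Width (bp) and score of the 47 peaks on log axes, over the density of the whole list in grey. Peaks over starts (circles) lie at widths of 2179 bp and more and, apart from FRZB, at scores above 1000; other peaks of the windows (crosses) spread down to the lowest scores.

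The midpoints of the start peaks lay downstream of the starts as given, but for most genes by less than the 1 kb precision of the start. In AXIN2 the midpoint was 1.59 kb inside the gene, in LEF1 1.21 kb and in NOTUM 1.20 kb. ZNRF3, at 1.00 kb, was at the limit of that precision. In DKK1, SP5, SFRP5, TCF7, SFRP1 and FRZB the midpoint was 0.125 to 0.504 kb downstream, so these 6 peaks cannot be told from peaks centred on the start. The strand of each gene was taken from general knowledge, and no hg19 annotation was used.

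Peaks were denser in the windows than over the list as a whole. The windows, 0.871 Mb in all, held 54.0 peaks per Mb (exact 95% Poisson interval 39.6 to 71.8) against 19.0 per Mb over the list, a ratio of 2.85 (2.09 to 3.79). Taken singly, the LEF1 (12.3 per Mb) and FRZB (13.5) windows were below the list. The other windows were above it, DKK1 and SP5 the least (22.7 each). Peaks covered 12.9% of the windows, against 3.69% of the stretch used for the list, and the FRZB window alone (2.94%) fell below that share. Most of the number came from 4 genes: AXIN2 had 10 peaks, NOTUM 9, ZNRF3 8 and SFRP1 7, which is 34 of the 47. DKK1, FRZB and SP5 had 1 each, LEF1 2, TCF7 3 and SFRP5 5. These are counts of called peaks and not of separate sites, since some lie close together. In AXIN2, for example, a peak ends at 63553287 and the start peak begins at 63553373. With peaks up to 1 kb apart merged, the windows held 38 peaks and the density ratio was 2.61. Counts per gene were not recomputed after merging. As many peaks as in the AXIN2 window were found in 1.55% of end-to-end windows of that length, and as many as in the FRZB window in 43.7%. By position, 10 of the 47 peaks lay over starts, 16 elsewhere in the spans, 12 upstream and 9 past the far end. None of the 16 peaks elsewhere in the spans reached a score of 1000, and their highest was 965. The 95% Wilson interval of 0 in 16 runs from 0 to 19.4% and holds the share of the whole list, 18.6%. The count is therefore not shown to differ from the list.

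The surroundings of the genes differed widely. In the 200 kb beyond either edge of each window there were 116 peaks in all (29.0 per Mb, 6.40% of bases covered, 8 at the ceiling). Each of the 10 windows was covered to a larger share than its own flanks, and 9 of 10 had more peaks per Mb, with ZNRF3 as the exception (37.2 against 37.5). AXIN2 stood out from a nearly empty region: its window had 135 peaks per Mb against 5.0 in its flanks, where the highest score was 88.0. DKK1 was also isolated, with 1 flanking peak (score 227), and the flanks of FRZB and LEF1 had 5.0 peaks per Mb, as many as those of AXIN2. NOTUM lay in a region full of peaks, where the flanks had 132.5 peaks per Mb, 35.8% of bases covered and 6 of the 8 flanking peaks at the ceiling. The start peak scored above every flanking peak in 4 genes (DKK1, SFRP1, AXIN2 and LEF1). For FRZB, with a start peak of 400, the flanks held a peak scoring 2415. A window widened from the gene takes in its start by design, and the flanks hold few or many starts of other genes, which were not counted.

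**Figure D4:**
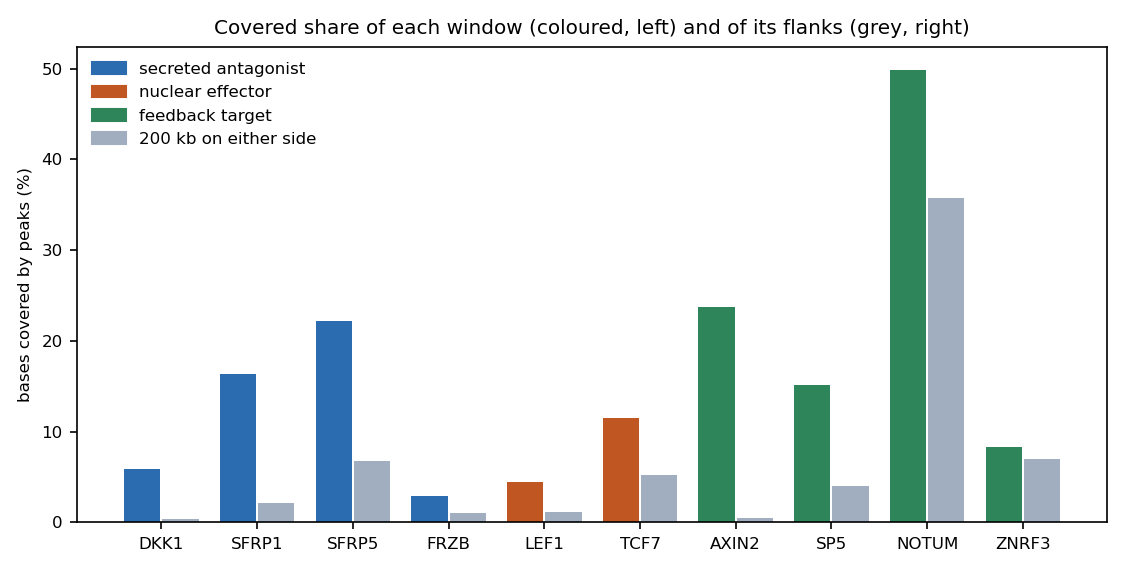
Share of bases covered by peaks (%) in each gene's window (coloured, left bar) and in the 200 kb beyond either edge of it (grey, right bar). The window exceeds its flanks for all 10 genes, from AXIN2 at 23.8% against 0.528% to ZNRF3 at 8.35% against 6.97%, and NOTUM has the fullest window and flanks.

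At the 20 kb limit of the windows, an SFRP5 peak (score 61.9) straddled the edge. The nearest peaks outside lay 1.08 kb beyond the edge for SFRP5 (score 66.7) and 2.47 kb for NOTUM, where the outside peak was 7800 bp wide and at the ceiling. For DKK1, FRZB, LEF1, SP5 and ZNRF3 no outside peak lay within 30 kb of the edge.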

How the data were processed

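The material was 1 V5 ChIP library and 1 input library. Reads were aligned with BWA 0.7.17 to hg19, per the submitters' processing notes, and peaks were called with MACS, per the peak names in the deposited file. The MACS version and its settings were not found in the labels or the file. Per the labels' protocols the extraction text describes genomic DNA and no immunoprecipitation. The deposited values are a score per peak without a stated unit, which served to describe and rank peaks within the list and for nothing else. Of 46208 peaks, 46207 on 24 human chromosomes were used, and read depth is unknown.

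Positions are on hg19, counted from 1. Spans, given to 1 kb, were widened by 20 kb, and any overlap counted. Density over the list used the stretch from first to last peak of each chromosome without peak-free intervals over 1 Mb, and end-to-end windows ran from first to last peak with those intervals kept. All 10 genes are named, with each one's start peak, widest peak, highest score and ceiling peaks. Other peaks given for context were named after their values were seen. Members, gene groups and lists were chosen with earlier results of these data known. A list of other WNT pathway genes was to be counted only with an hg19 annotation, which was not used here. RefSeq's GRCh38.p14 tables served for neighbours and promoter sequences only. Counting was tested on simulated peaks with known answers. Python 3.11.15, pandas 2.3.3, numpy 2.4.6, scipy 1.17.1 and matplotlib 3.10.9 were used. Alternatives were other widenings, stricter scores, merging, midpoints, wider start intervals and leaving out ZNRF3.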

Additional observations from a re-analysis of the deposited data

How the results depend on the processing

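For 6 results 46 alternative values were computed. A move past 1.5 times the reported value, or for the density ratio past its counting interval, occurred in 7 of them and not in the other 39. Stricter scores and narrower windows change counts by construction. Some of the 39 were fixed in advance: for example, stricter scores cannot remove a peak at the ceiling. The windows held 47 peaks as deposited, 26 without widening, 26 in the upper 50% of the list by score and 18 in the top 25%. In the top 25% by score the covered share fell to 8.06%, the density ratio was 4.36 and the median width 3670 bp; in the upper 50% the median width was 3120 bp. The number of genes with a peak over the start stayed at 10 in the upper 50% and was 9 in the top 25%, where FRZB dropped out. It was also 10 after merging peaks up to 1 kb apart and with 2 or 5 kb either side of the start. Those settings cannot lower it. Without ZNRF3 it was 9 of the 9 genes left, which was fixed in advance as well. Without ZNRF3, the longest window, the density ratio was 3.14. That window (37.2 peaks per Mb) was sparser than the windows together (54.0), so leaving it out could only raise the ratio. Leaving out a dense window such as NOTUM or AXIN2 would lower the ratio and was not tried. No paired analysis was possible because there is 1 library per group. With 1 library and no read counts, the error of any score or width cannot be given.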
